A study of Drosophila melanogaster with 6 samples.

Results

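Chitin is the long sugar polymer of insect cuticle, tracheal lining and gut membrane, and this account follows the fly genes that make it, deacetylate it, break it down and bind it. The members were 39 gene symbols chosen by function: chitin synthases with their sugar precursors, deacetylases, chitinases, hexosaminidases, obstructors and the chitinase-like Idgf proteins. One symbol, Cht3, is another name of Cht10 in the gene table used, which leaves 38 genes, and rtv and Hexo1 are not named in the array annotation used here. The other 36 genes were each found on a single row, among 13402 genes named on 16322 rows.

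RNA from fly heads was hybridised to 6 Drosophila Gene 1.0 ST arrays to ask which transcripts change in common when altered glia cause bang-sensitive seizures, which are seizures after a mechanical shock. The 3 pool arrays carried equal amounts of RNA mixed from 7 lines, each crossed to repo-GAL4, which drives expression in glial cells: SesB-RNAi, COX7A-RNAi, comt-RNAi, nrv2-RNAi, ATPalpha-RNAi, UAS-Dube3a and UAS-htt.12Q.FL. The 3 control arrays carried RNA of flies with repo-GAL4 and an empty TRiP RNA interference vector, so both groups share the driver. Control was thus 1 line against 7, and the 2 overexpression lines had no control arrays of their own. Line background and the altered genes cannot be told apart. Flies were about 3 to 5 days old and kept at 25 °C, with 15 to 25 heads taken per genotype, and no sex is stated. Because the lines were mixed before hybridisation, a change in 1 line and a smaller change in all of them cannot be told apart. RNA interference and overexpression act in glia, whereas most chitin genes are known for their work in epidermis, trachea and gut.

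In insects, UDP-N-acetylglucosamine is built from glucose through the hexosamine pathway and polymerised by chitin synthases in the membrane of epithelial cells. Secreted deacetylases and chitin-binding proteins then organise the fibres, chitinases cut them, and hexosaminidases release single sugars. The Idgf proteins share the chitinase fold but lack enzyme activity and are known as secreted growth factors. In the head these genes are known mainly from the cuticle, the tracheae and the fat body that lie around the brain.

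All values below are deposited log2 signals, 1 per gene and array, and each difference is pool minus control on that scale. A gene is said to have risen or fallen only where limma's Benjamini-Hochberg adjusted p over all 16322 rows was under 0.05. Whether replicate arrays hold separate RNA preparations is not stated, so the p-values cover only array-to-array spread, which may be technical. Array medians lay between 5.53 and 5.63, and the 6 arrays limit the precision. Of the genes altered in the pooled lines, Ube3a (Dube3a) read 9.23, 9.30 and 9.25 in the pool, against 8.20, 8.33 and 8.33 in control (difference 0.97, adjusted p = 0.00015). The knockdown targets sesB, COX7A and nrv2 gave differences of 0.05, 0.05 and -0.07, with adjusted p = 0.713, 0.786 and 0.592. The row of the fly gene htt differed by -0.01 (adjusted p = 0.959), and whether it reads the UAS-htt.12Q.FL transgene was not tested. The other targets, comt and Atpalpha, are not named in the array annotation used here. Each target was altered only in glia and in 1 of the 7 lines.

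Most of the measured chitin deacetylases, 1 chitinase and some obstructors rose in the pool, and no gene of chitin synthesis was called. The synthesis rows of kkv, Chs2 and knk lay below every array median, where a change in transcript may not be detectable. Of the 36 measured genes 8 rose and 0 fell, or 22.2%, where 2.90% of all rows were called, 1.65% as higher and 1.24% as lower. The members were chosen with earlier results of these data known, so this share is only descriptive. The 8 were the deacetylases serp, verm, Cda4 and Cda5, the chitinase Cht7 and the chitin-binding obstructors obst-A, obst-B and Gasp. Their differences ran from 0.41 to 0.86, or 1.33-fold to 1.81-fold. The rows of Cht7 and obst-B also averaged below every array median. The median difference over all 36 genes was 0.02, beside -0.00055 over all rows, and 22 of the 36 lay above 0. In bulk heads, more cells of a type and more RNA per cell cannot be told apart.

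**Figure D1:**
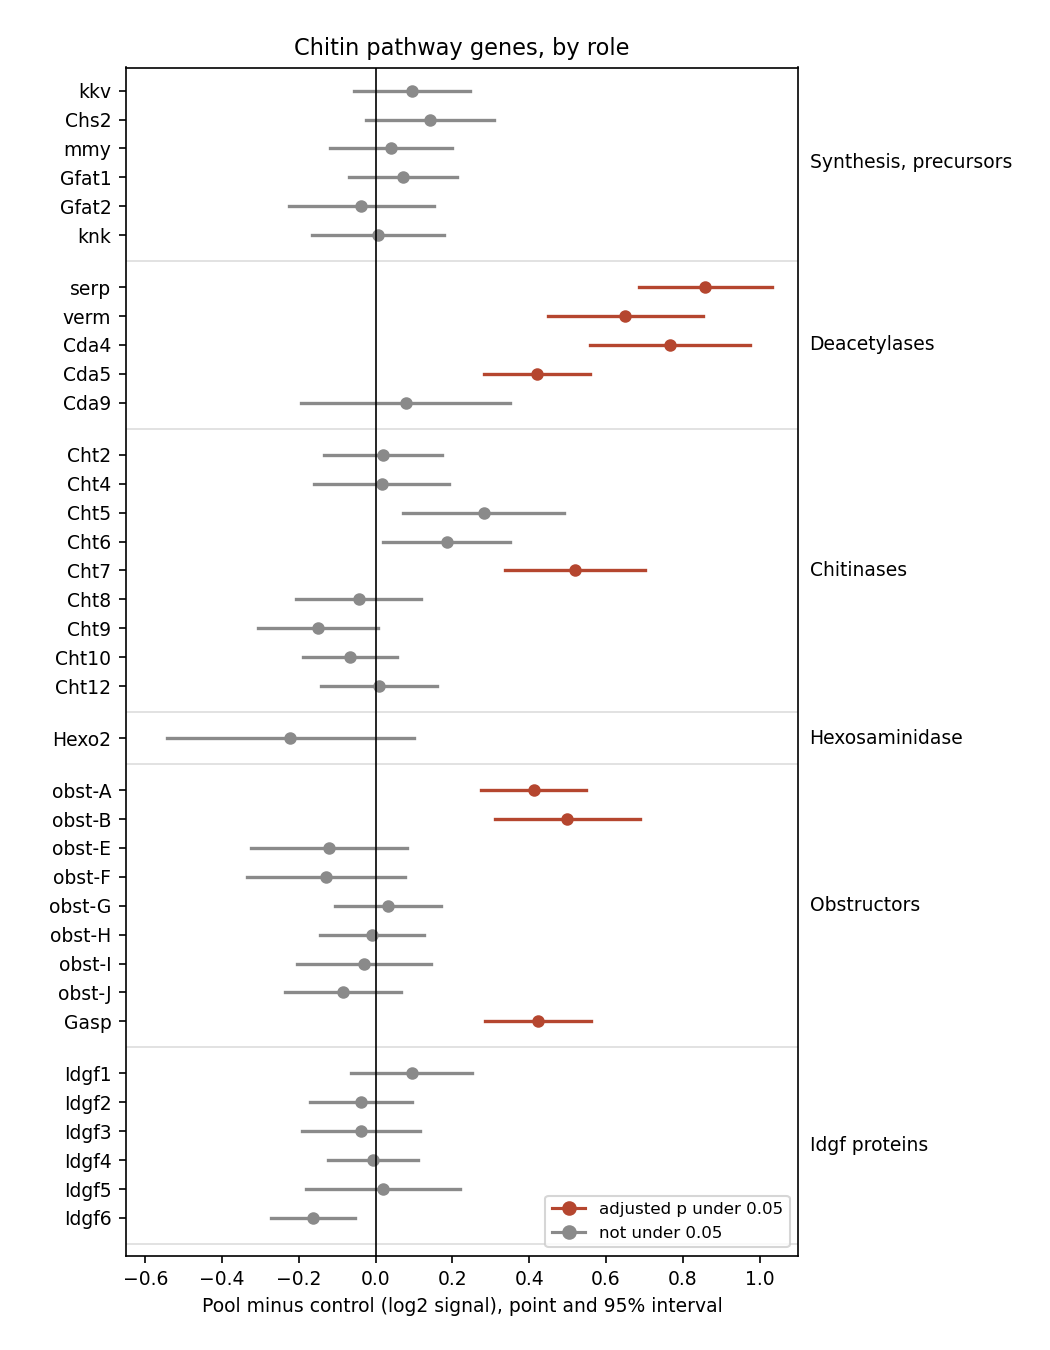
Difference between pool and control on the log2 scale (horizontal axis) for the 36 measured genes, grouped by role, as a point with its 95% interval from limma; red marks an adjusted p under 0.05. The 8 red genes lie between 0.41 and 0.86, and 4 of them are deacetylases.

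Markers of other tissues also differed between the groups, and their part in the chitin results was not tested. Over all rows 2.90% were called, 1.65% as higher and 1.24% as lower. Of 5 muscle markers 4 rose (Act88F, fln, up and TpnC4), and the log2 of their summed signal was 11.53 to 11.58 in the pool, against 10.57 to 10.60 in control. Of 7 midgut markers 4 rose and 0 fell (the risers were Mal-A6, Jon99Ci, LysP and betaTry), with a summed signal of 10.87 to 10.95 in the pool and 10.84 to 10.90 in control. The brightest midgut row, Jon65Aiii, weighs most in that sum and differed by -0.13 (adjusted p = 0.269). Of 7 fat body markers 1 rose, the storage protein gene Lsp2, with a sum of 15.44 to 15.47 in the pool, against 15.48 to 15.50 in control. The yolk protein genes Yp1, Yp2 and Yp3 had the brightest rows of that list and weigh most in its sum. Their differences were -0.11, -0.11 and -0.19, without a call. The median difference of the 7 fat body markers was -0.08, with 5 below 0 and 2 above. Of 7 hemocyte markers 2 fell, PPO1 and PPO2, with a sum of 11.14 to 11.19 in the pool and 11.38 to 11.42 in control. PPO1 and PPO2 had the brightest rows of that list and weigh most in its sum. Over the 7 the median difference was 0.0020, with 4 above 0 and 3 below. Of 6 glial markers 1 fell, wrapper, and the sum was 13.13 to 13.17 in the pool, against 13.18 to 13.21 in control. That list holds nrv2, itself a knockdown target, and Gs2 had the brightest row. Over the 6 the median difference was -0.12, with 5 below 0 and 1 above. Of the 3 neuronal markers none was called, at 11.65 to 11.75 in the pool and 11.59 to 11.66 in control. Photoreceptor markers summed to 13.18 to 13.25 in the pool, against 12.95 to 12.99 in control, and 1 of 2 rose. Besides Gasp, 2 tracheal markers were measured, btl and kni, and their differences were -0.16 and -0.08 (adjusted p = 0.467 and 0.717). The labels name the tissue as brain, whereas the yolk protein genes of fat body read 13.21 to 13.80 across the arrays, and the protocol took whole heads. The signals carry no detection call, so no marker can be said to be at 0.

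Chitin deacetylases strip acetyl groups from chitin and are best known from the tracheal tubes, where the matrix they modify limits tube length. Of the 5 measured, 4 rose and 0 fell, or 80% where 2.90% of all rows were called. The median difference of the 5 was 0.65. In serp (serpentine), which encodes a secreted deacetylase with a chitin-binding domain, the arrays read 8.22, 8.10 and 8.24 in the pool, against 7.28, 7.24 and 7.46 in control. Every pool array lay above every control array, with a gap of 0.64 between the groups. The means were 8.19 ± 0.08 in the pool and 7.33 ± 0.12 in control (SD, n = 3 each), a 1.81-fold rise (difference 0.86, standard error 0.075, adjusted p = 0.00103). This was the largest difference of the 36 genes.

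Its neighbour verm (vermiform) encodes a deacetylase of the same kind, and the gene table places no protein-coding gene between them. For verm the signal was 7.36, 7.45 and 7.51 in the pool, against 6.97, 6.74 and 6.66 in control. The groups did not overlap, and the control arrays were more scattered, with means of 7.44 ± 0.08 in the pool and 6.79 ± 0.16 in control (SD, n = 3 each). The rise was 1.57-fold (difference 0.65, 95% interval 0.45 to 0.85, adjusted p = 0.00828).

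Cda4, another secreted deacetylase, read 6.38, 6.31 and 6.19 in the pool, against 5.48, 5.71 and 5.40 in control. The highest control array stayed 0.49 below the lowest pool array, and the rise was 1.70-fold (difference 0.77, standard error 0.090, adjusted p = 0.00456). Cda5 gave 8.26, 8.21 and 8.33 in the pool, against 7.78, 7.84 and 7.92 in control. Its 3 pool values again lay above all control values, with a 1.34-fold rise (difference 0.42, standard error 0.060, adjusted p = 0.0109). Without pool replicate 3 the Cda5 difference was 0.39 and its adjusted p 0.0539. The fifth gene, Cda9, belongs to the deacetylases that are known from the gut and lack a chitin-binding domain. It read 5.45, 5.36 and 5.60 in the pool, against 5.53, 5.12 and 5.52 in control, so the groups overlapped (difference 0.08, 95% interval -0.19 to 0.35, adjusted p = 0.824).

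**Figure D2:**
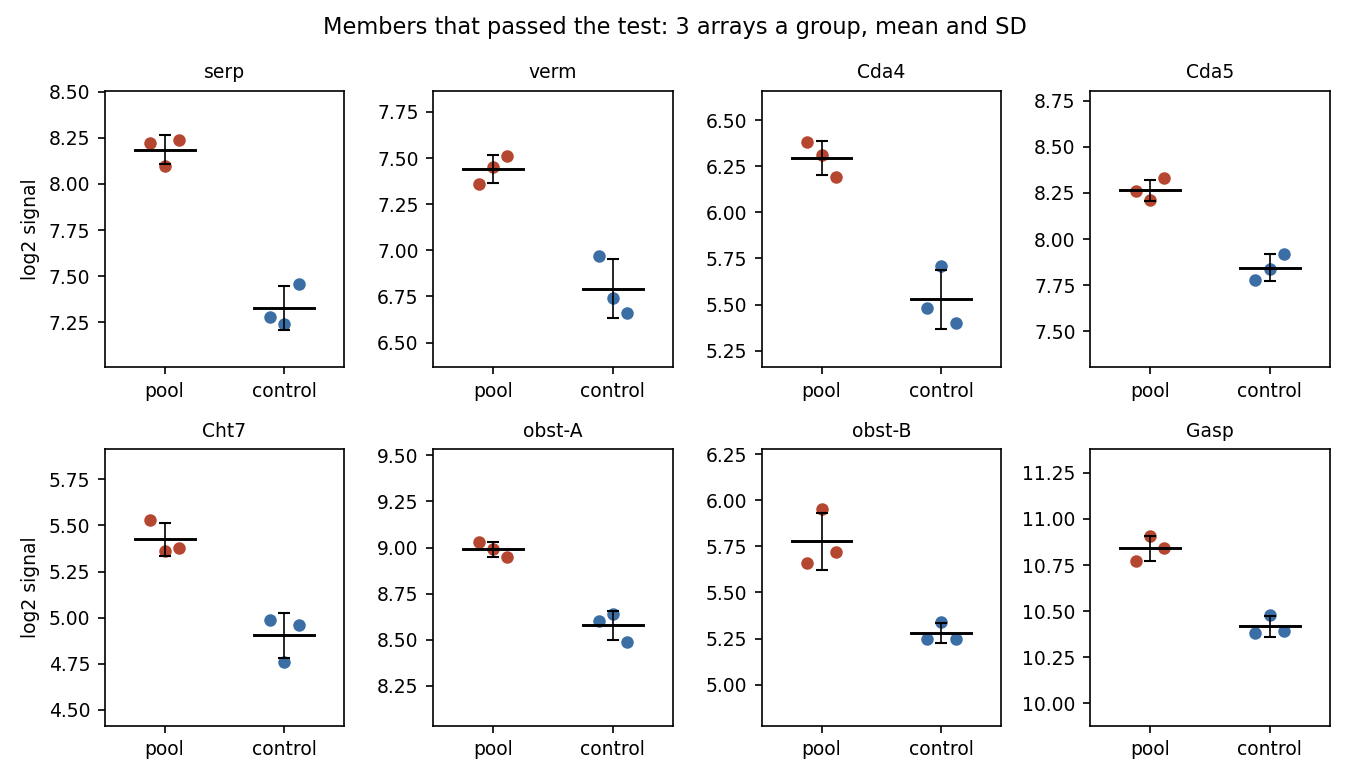
Log2 signal (vertical axis, the same span in each panel) of the 8 genes that rose, with 3 pool arrays on the left and 3 control arrays on the right; lines and bars are means and SD. In all 8 panels the pool points lie above the control points, and the widest gap is that of serp, 0.64.

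Genes of chitin synthesis and its precursors gave no call. Limma called 0 of the 6 measured, none had an unadjusted p under 0.05, and the median difference was 0.06. The chitin synthase of epidermis and trachea, kkv (krotzkopf verkehrt), read 4.63, 4.56 and 4.60 in the pool, against 4.42, 4.46 and 4.62 in control. The third control array lay within the pool's range, and the difference of 0.09 had a 95% interval of -0.06 to 0.25. Chs2, the chitin synthase of the gut, read 4.14, 4.29 and 4.18 in the pool, against 4.13, 4.13 and 3.94 in control. Its groups were apart by only 0.014, with a difference of 0.14 (95% interval -0.03 to 0.31, adjusted p = 0.419), and its row lay in the dimmest 25% of the array. The rows of kkv and Chs2 averaged 4.55 and 4.14 over all arrays, below every array median. A change in their transcripts may not be detectable.

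The enzymes that feed the synthases showed the same lack of a call. Gfat1 and Gfat2 encode the glutamine fructose-6-phosphate aminotransferases that open the hexosamine pathway. For Gfat1 the arrays gave 8.86, 8.70 and 8.71 in the pool, against 8.64, 8.71 and 8.71 in control. Only pool replicate 1 stood above the rest, and the difference was 0.07 (95% interval -0.07 to 0.21, adjusted p = 0.667). Gfat2 differed by -0.04 (adjusted p = 0.887), and its pool arrays spread from 7.39 to 7.70. The pyrophosphorylase gene mmy (mummy), whose product makes the activated sugar, differed by 0.04 (adjusted p = 0.848), with 8.38 to 8.56 in the pool and 8.35 to 8.50 in control. The gene knk (knickkopf), whose product protects new chitin from chitinases, differed by 0.0068 (95% interval -0.16 to 0.18, adjusted p = 0.981). Its row averaged 4.29 over all arrays, also below every array median, so a change there may not be detectable.

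**Figure D3:**
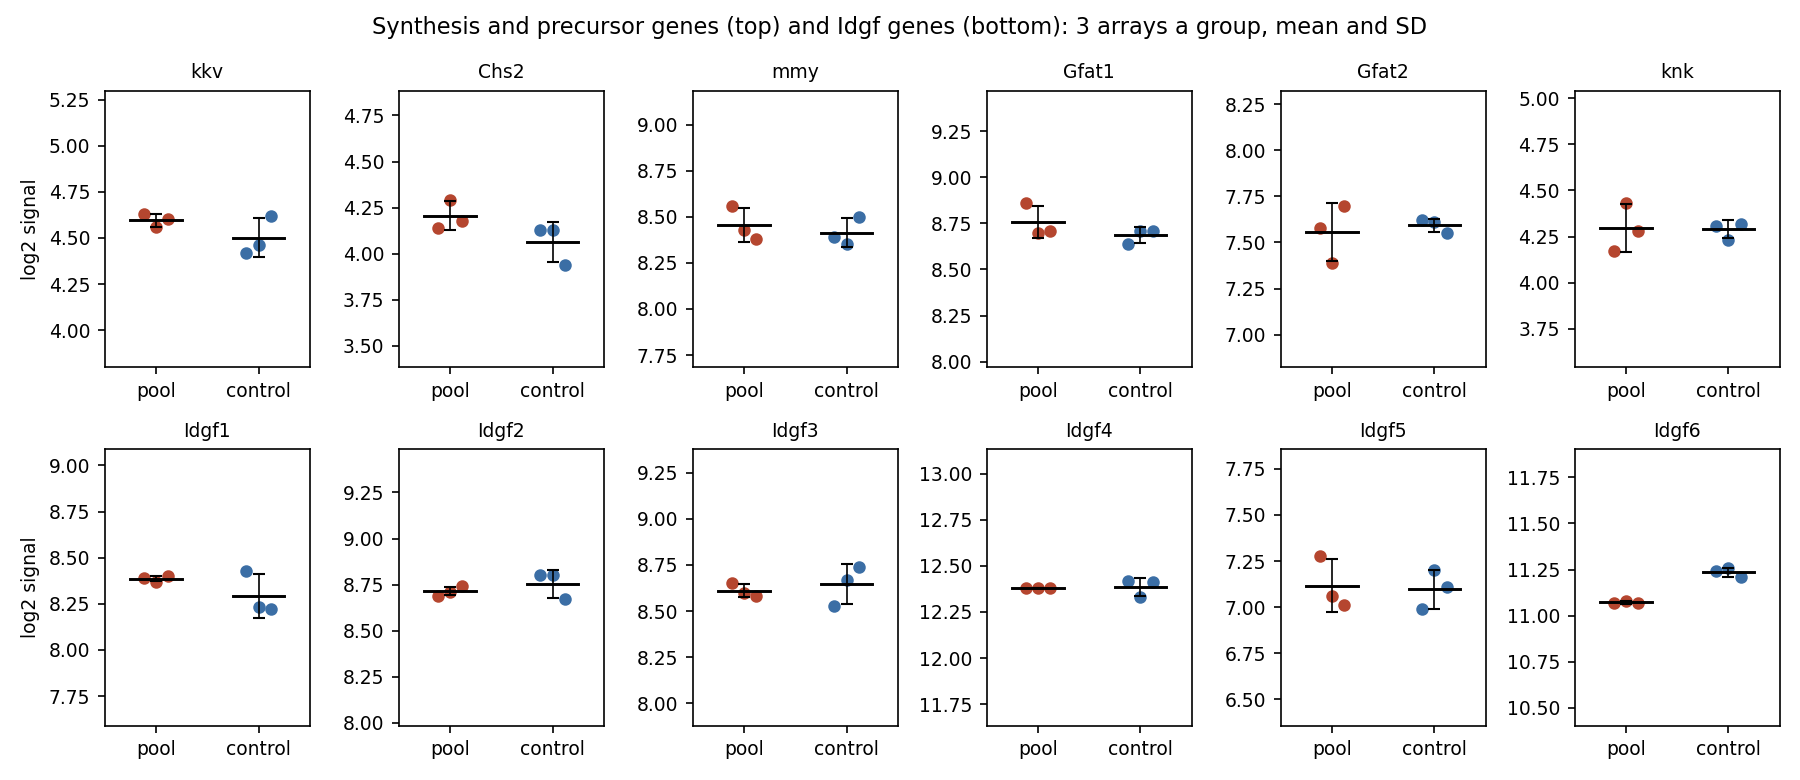
Log2 signal (vertical axis, the same span in each panel) of the 6 measured synthesis and precursor genes (top row) and the 6 Idgf genes (bottom row), pool arrays on the left and control arrays on the right, with means and SD. None passed the test; the groups overlap in every panel except Chs2, where pool is higher by a gap of 0.014, and Idgf6, where pool is lower by a gap of 0.13.

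Chitinases cut the polymer, and among the 9 measured Cht7 alone passed the test, as 1 rise and 0 falls. That is 11.1%, where 2.90% of all rows were called. Cht7, a chitinase known from other insects to be held at the cell surface and to shape new cuticle, read 5.53, 5.36 and 5.38 in the pool, against 4.99, 4.76 and 4.96 in control. The groups did not overlap, at 5.42 ± 0.09 in the pool and 4.90 ± 0.12 in control (SD, n = 3 each). The rise was 1.43-fold (difference 0.52, standard error 0.079, adjusted p = 0.0139). The Cht7 row averaged 5.16 over all arrays, below every array median. Without pool replicate 1 the difference was 0.47 and the adjusted p 0.0552, and without pool replicate 3 they were 0.54 and 0.0524.

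Cht5, Cht6 and Cht10 did not pass the test. Cht5, which in other insects digests old cuticle at the moult, read 5.27, 4.97 and 5.01 in the pool, against 4.90, 4.73 and 4.78 in control. All pool arrays were higher, by a gap of 0.071, and pool replicate 1 stood highest (difference 0.28, unadjusted p = 0.0150, adjusted p = 0.185). Cht6 read 5.82, 5.58 and 5.66 in the pool, against 5.48, 5.49 and 5.53 in control, also without overlap (difference 0.18, unadjusted p = 0.0322, adjusted p = 0.278). Cht10, a large chitinase also known from moulting, differed by -0.07 (adjusted p = 0.631), with its pool arrays at 4.10, 4.12 and 4.12 and its control arrays at 4.25, 4.17 and 4.13.

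Cht4, Cht8, Cht9 and Cht12 lie side by side in the gene table, with no protein-coding gene between neighbours, and none of the 4 passed the test. Cht9 read 8.35, 8.30 and 8.13 in the pool, against 8.37, 8.43 and 8.43 in control. Its pool arrays were all lower, by a gap of 0.018, with a difference of -0.15 (95% interval -0.31 to 0.0064, adjusted p = 0.360). Cht4 differed by 0.02, Cht8 by -0.04 and Cht12 by 0.0087, with adjusted p = 0.955, 0.836 and 0.973. Cht2, which stands elsewhere in the table, differed by 0.02 (adjusted p = 0.936), with 4.87 to 4.96 in the pool and 4.80 to 5.00 in control. Cht10 and Cht12 lay in the dimmest 25% of rows, and the row of Cht2 averaged 4.90 over all arrays, below every array median.

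**Figure D4:**
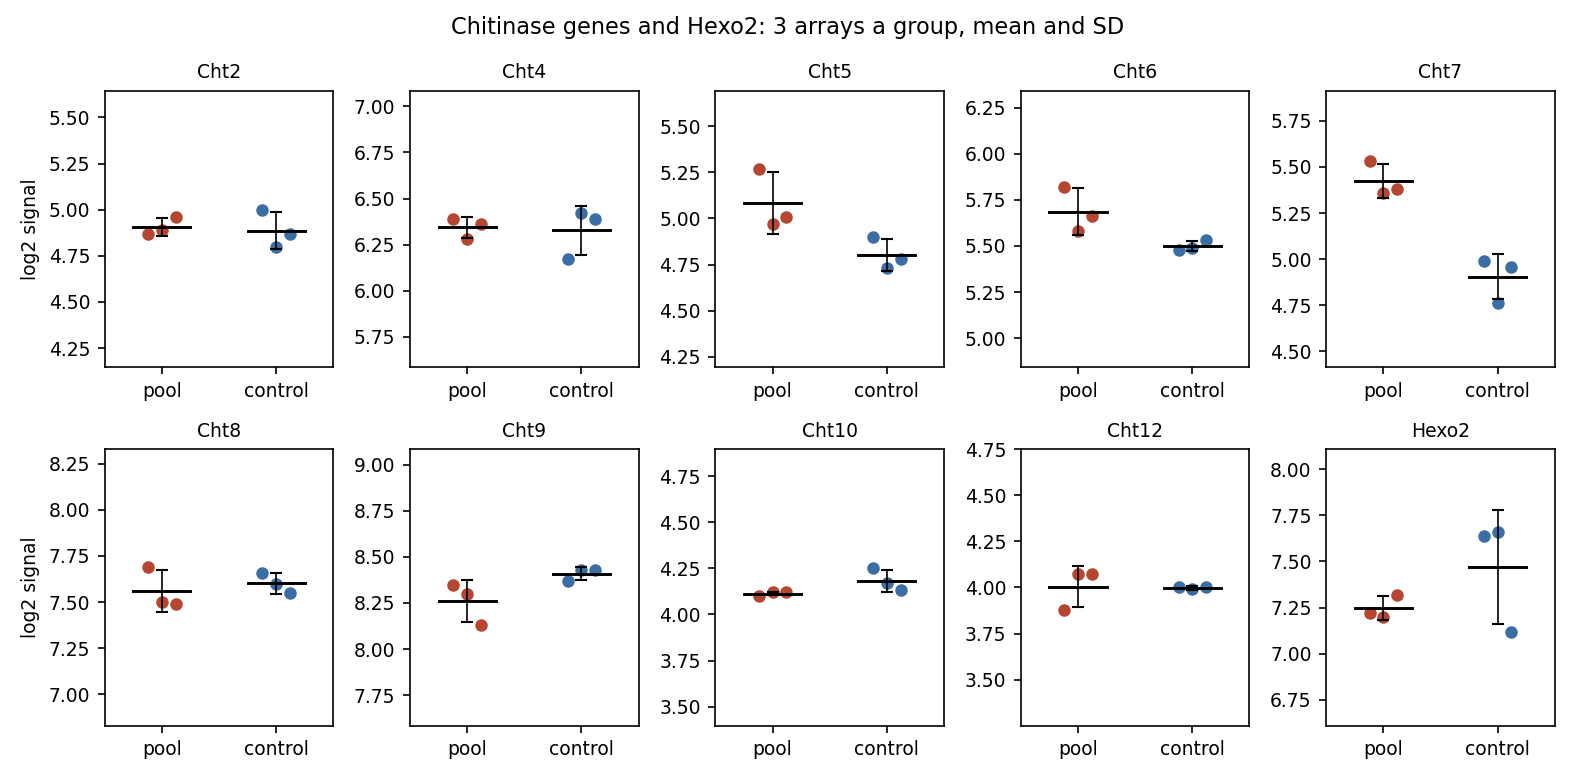
Log2 signal (vertical axis, the same span in each panel) of the 9 measured chitinase genes and Hexo2, with 3 pool arrays on the left and 3 control arrays on the right, means and SD. Cht7 is the panel with the widest gap, 0.37, and the third control array of Hexo2 stands lowest.

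Hexo2 encodes a hexosaminidase that removes single sugars from chitin ends, and it is the 1 member of that role measured here. It read 7.22, 7.20 and 7.32 in the pool, against 7.64, 7.66 and 7.12 in control. Control replicate 3 lay below every pool array while the other control arrays lay above them, so the groups overlapped (difference -0.22, standard error 0.14, adjusted p = 0.525). Without control replicate 3 the difference was -0.40 with an adjusted p of 0.0299. Hexo2 was thus called only with that array left out, and not with all arrays.

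Obstructors are secreted proteins with chitin-binding domains that scaffold the fibres, and 3 of the 9 measured rose and 0 fell. That is 33.3%, where 2.90% of all rows were called. In obst-A, which in the larval cuticle binds chitin together with deacetylases, the signal was 9.03, 8.99 and 8.95 in the pool, against 8.60, 8.64 and 8.49 in control. The groups were apart by 0.31, and the rise was 1.33-fold (difference 0.41, standard error 0.059, adjusted p = 0.0112). Without pool replicate 1 its difference was 0.39 and adjusted p 0.0546, and without pool replicate 2 they were 0.41 and 0.0530.

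Gasp, also an obstructor and a component of the tracheal lining, read 10.77, 10.91 and 10.84 in the pool, against 10.38, 10.48 and 10.39 in control. The arrays of each group lay close together, at 10.84 ± 0.07 in the pool and 10.42 ± 0.06 in control (SD, n = 3 each). The rise was 1.34-fold (difference 0.42, adjusted p = 0.0104), and without pool replicate 3 the adjusted p was 0.0510. For obst-B the arrays gave 5.66, 5.95 and 5.72 in the pool, against 5.25, 5.34 and 5.25 in control. Pool replicate 2 was the highest, and the rise was 1.41-fold (difference 0.50, standard error 0.082, adjusted p = 0.0203). The obst-B row averaged 5.5276 over all arrays, just below the lowest array median of 5.5302. The obst-B call was lost without control replicate 1, 2 or 3 (adjusted p = 0.0828, 0.0532 and 0.0645) and without pool replicate 3 (0.0581).

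The other 6 obstructor genes overlapped between the groups. Their differences ran from -0.13 in obst-F to 0.03 in obst-G, with adjusted p of at least 0.579. The signal of obst-E, whose product shapes the pupal cuticle and thereby the body, was 5.54, 5.60 and 5.45 in the pool, against 5.61, 5.83 and 5.51 in control (difference -0.12, adjusted p = 0.598). The values for obst-H, obst-I and obst-J were -0.0098, -0.03 and -0.09. The rows of obst-F, obst-G, obst-I and obst-J lay in the dimmest 25%, where a change in transcript may not be detectable. The row of obst-H averaged 4.28 over all arrays, below every array median.

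The Idgf genes gave no call. Of the 6, 0 rose and 0 fell in limma, 1 had an unadjusted p under 0.05, and the median difference was -0.02. Idgf4, which in flies also has a part in the tracheal and cuticular matrix, read 12.38 in all 3 pool arrays, against 12.42, 12.33 and 12.41 in control. The difference was -0.0058 (95% interval -0.12 to 0.11, adjusted p = 0.976). Idgf6 read 11.07, 11.08 and 11.07 in the pool, against 11.24, 11.26 and 11.21 in control. All pool arrays lay below control, by a gap of 0.13, with a difference of -0.16 (standard error 0.048, unadjusted p = 0.00942, adjusted p = 0.143). With trend and robust settings in eBayes the same difference had an adjusted p of 0.010.

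Idgf1, Idgf2 and Idgf3, which are neighbours with no protein-coding gene between them, gave differences of 0.09, -0.04 and -0.04, with adjusted p = 0.598, 0.825 and 0.852. Idgf1 read 8.39, 8.37 and 8.40 in the pool, against 8.43, 8.23 and 8.22 in control, so control replicate 1 lay above the pool. Idgf5 differed by 0.02 (95% interval -0.18 to 0.22, adjusted p = 0.951), with 7.01 to 7.28 in the pool and 6.99 to 7.20 in control.

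In 14 of the 36 genes (38.9%) the pool and control values did not overlap, 11 higher and 3 lower, where 21.5% of all rows were apart in this way, 11.4% higher and 10.0% lower. Of the 28 genes without a call, Chs2, Cht5 and Cht6 were higher and Cht9, Cht10 and Idgf6 lower, or 21.4%, which is near that background. Leaving out 1 array at a time, serp, verm and Cda4 kept their calls in every case, with adjusted p of up to 0.0094, 0.0439 and 0.0292. Without pool replicate 3 the calls were 4 of the 36 genes: these 3 and obst-A. Each omission also lowered the count of calls over all rows, from 473 to between 218 and 312, so lost calls are not particular to these genes.

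**Figure D5:**
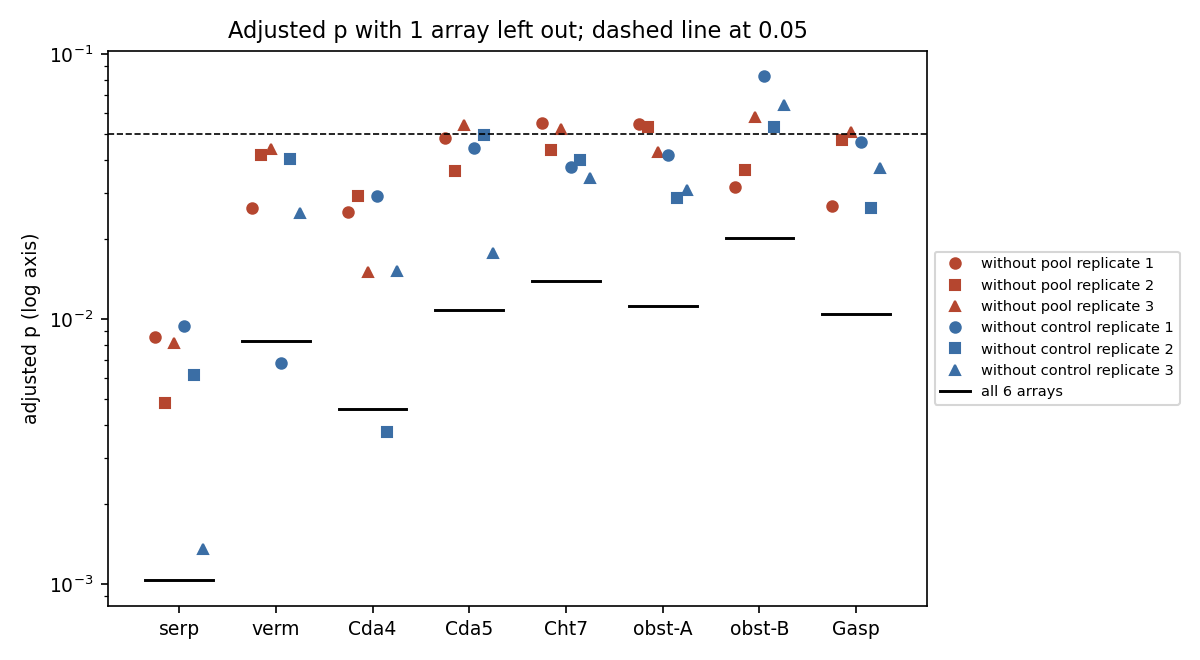
Adjusted p from limma (vertical log axis) of the 8 genes that rose, with all 6 arrays (black line) and with each array left out (red for pool arrays, blue for control arrays); the dashed line is 0.05. All points of serp, verm and Cda4 lie below the line, and at least 1 point of each other gene lies above it.

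Genes that work beside the members were called in small numbers, where 2.90% of all rows were called. The share was 14.3% of 7 other amino sugar enzymes and 15.4% of 13 genes of chitin matrix organisation. Of 7 other amino sugar enzymes 0 rose and 1 fell: Nagk, the N-acetylglucosamine kinase that recycles the sugar released from chitin and glycoproteins, read 7.91, 7.75 and 7.78 in the pool, against 8.57, 8.57 and 8.65 in control (difference -0.78, adjusted p = 0.000605). The other 6 in that list lay between -0.01 and 0.10, Gnpnat and nst, the next enzymes after Gfat, at 0.04 each. Of 13 genes of chitin matrix organisation 1 rose and 1 fell. Tracheal chitin deposition with kkv needs exp (expansion) or its neighbour reb (rebuff), and exp read 5.68, 5.85 and 5.86 in the pool, against 5.49, 5.25 and 5.19 in control. Its groups did not overlap (difference 0.49, adjusted p = 0.0308), while reb differed by 0.24 (adjusted p = 0.155). The call of exp was lost without control replicate 2 or 3 or any pool array, with adjusted p = 0.109, 0.0854, 0.0531, 0.118 and 0.117. Osi7, of a secreted or membrane protein family of cuticle-forming cells, fell by 0.48 (adjusted p = 0.0393), reading 4.97, 4.64 and 4.78 in the pool, against 5.19, 5.38 and 5.24 in control. That call held without pool replicate 1 and was lost in each of the 5 other omissions (adjusted p = 0.0898, 0.127, 0.0952, 0.113 and 0.135).

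Of 5 further chitinase and deacetylase genes 1 was measured, Cht11, and it was not called (difference 0.07, adjusted p = 0.656). Limma called 0 of 14 peritrophin and mucin-type chitin-binding genes, with 1 at an unadjusted p under 0.05 and a median of 0.02. It also called 0 of 7 cuticle tanning genes, with 2 at an unadjusted p under 0.05. The nearest was t (tan), which read 11.08, 11.11 and 11.13 in the pool, against 10.85, 10.84 and 10.91 in control (difference 0.24, adjusted p = 0.0502). Of 11 moult hormone regulators 1 rose and 0 fell, or 9.09% where 2.90% of all rows were called, with a median of 0.07. This was ftz-f1, a nuclear receptor that follows the ecdysone pulse, at 9.71, 9.70 and 9.71 in the pool, against 9.36, 9.48 and 9.40 in control (difference 0.29, adjusted p = 0.0308). For ftz-f1 each of the 6 omissions of an array ended the call (adjusted p = 0.0552 to 0.111), as did median centring (0.0593).

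Of 111 secreted cuticle protein genes, which bind or overlie chitin, 8 rose and 1 fell. That is 8.11%, where 2.90% of all rows were called, and the median difference of the 111 was -0.00086. The largest were Acp1 (difference 2.32), Cpr100A (1.64), Cpr97Eb (1.35) and Cpr62Bc (1.22), where serp had 0.86. Acp1, an adult cuticle protein gene, read 8.16, 8.06 and 8.15 in the pool, against 5.80, 5.75 and 5.87 in control, with no overlap. The gene that fell was Cpr65Au (difference -0.30).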

How the data were processed

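Per the labels' protocols, total RNA of 15 to 25 heads per genotype was labelled for the arrays, and the RNA of the seizure lines was mixed before hybridisation. The authors deposited 1 log2 value per row and array, made with Affymetrix Expression Console per the submitters' processing notes. Of its version, algorithm and normalization, and of the build, nothing is recorded in the labels; the log2 scale was read from the values (3.20 to 14.02). They were used as deposited, so a shift common to most genes may have been removed.

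Rows were named from the platform annotation, with identifiers matched to the RefSeq gene table of Release 6 plus ISO1 MT: of 16322 rows, 13441 had 1 symbol, 555 several and 2326 none. Groups came from the labels. Pool minus control was fitted over all rows in limma 3.58.1 (R 4.3.3; lmFit, eBayes, two-sided), with 4 residual and 3.78 prior degrees of freedom. On simulated arrays with 16322 rows the fit recovered 32% of rows changed by 0.3 log2 and 94% at 0.585, with 10 false calls. Each rate rests on 50 rows. The noise was normal, independent between rows and drawn with SDs already shrunk towards a common value, so recovery in the real data may be lower. Figures used matplotlib 3.10.9.

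Genes named in full were every called member and, in each of 6 roles, the member of highest mean and that of smallest p; the others are given so that all are accounted for. Genes of the neighbouring lists were named where called (up to 4 a list); reb, t and others without a call were chosen after their values were seen. Members and lists were chosen with earlier results of these data known. Alternatives were quantile normalization, median centring, dropping the dimmest 25% of rows, rows of a single symbol, a replicate block, each array left out, trend and robust eBayes, array weights, gene-wise means and a 1.5-fold minimum. Sequences and coordinates are not used here.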

Additional observations from a re-analysis of the deposited data

How the results depend on the processing

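The count of 8 members called was kept under array weights, median centring, quantile normalization, only rows with 1 symbol, the replicate block, gene-wise means and without the dimmest 25% of rows, and was 9 with trend and robust settings, where 1 Idgf gene (Idgf6) was added. With at least 1.5-fold required it was 3 members (serp, verm and Cda4), 0 chitinases and 0 obstructors. Leaving out 1 array gave 4 to 8 members, with 3 to 4 deacetylases, 0 to 1 chitinases, 0 to 1 hexosaminidases and 1 to 2 obstructors; pool replicate 3 gave the lowest. Over all rows the count was 473; it was 861 with trend and robust settings, 312 with the replicate block and 218 to 312 with 1 array left out. Median centring split the calls into 219 higher and 249 lower, where the deposited values gave 270 and 203. The replicate numbers did not pair the arrays: same-numbered deviations correlated at -0.014, -0.0048 and 0.090. With the block the 3 calls of exp, Osi7 and ftz-f1 were lost.

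Some members without a call changed sign. Median centring gave -0.026 for knk, -0.014 for Cht2, -0.017 for Cht4, -0.024 for Cht12, -0.00072 for obst-G and -0.013 for Idgf5. Quantile normalization gave -0.00061 for Cht4, 0.0049 for obst-H and 0.016 for Idgf4. Array weights gave 0.0045 for Idgf4 and -0.00079 for Idgf5. With 1 array left out the ranges crossed 0: mmy -0.011 to 0.085, Gfat2 -0.109 to 0.047, knk -0.061 to 0.069, Cda9 -0.056 to 0.149, Cht2 -0.027 to 0.074, Cht4 -0.061 to 0.060, Cht12 -0.024 to 0.073, obst-G -0.0036 to 0.065, obst-H -0.047 to 0.037, obst-I -0.078 to 0.036, Idgf3 -0.097 to 0.010, Idgf4 -0.034 to 0.0094 and Idgf5 -0.061 to 0.072. The cause was not tested. The median standard error of a difference was 0.0677 over all rows, and 7 of the 36 members lay in the dimmest 25%.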
